A study of Homo sapiens with 4 samples.

Results

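The genes examined here encode 33 subunits of the SWI/SNF and ISWI chromatin remodelers, out of 63677 genes in the deposited count table. They were chosen by name, as the listed subunits of the BAF, PBAF and ISWI complexes, and each of the 33 symbols matched 1 Ensembl gene. Their mRNA levels were measured in LX-2, an established human hepatic stellate cell line, by RNA sequencing. Cells received 20 nM of either the mimic of miR-6133-5p or miControl, the negative control mimic, and both groups were given rhTGF-β1 (5 ng/mL) 24 h later. RNA was taken 24 h after rhTGF-β1 addition, with 2 libraries in each group, so all 4 libraries come from cells treated with rhTGF-β1. The comparison asks how the mimic changed subunit mRNAs in these cells. LX-2 is a single line, and the mimic is a synthetic RNA delivered by lipofection. No source used here says that the replicates were separate cultures, so p-values measure only the spread between these libraries, which may be technical. In edgeR's fit that spread is shared in part across genes.

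Chromatin remodelers use the energy of ATP to slide, evict or space nucleosomes, and so set which stretches of DNA other proteins can reach. SWI/SNF complexes are built around an ATPase, either SMARCA4 or SMARCA2, and core subunits. Which form holds which of the core subunits was not examined here. They come in a canonical form (BAF, with an ARID1 subunit), a form with PBRM1 and ARID2 (PBAF) and a non-canonical form with BRD9. ISWI complexes pair SMARCA5 or SMARCA1 with a large partner subunit and mainly space nucleosomes evenly. In several positions of these complexes, paralogs can take the same place, so the mRNA balance within a paralog set is of interest beside each gene's own level. Whether the paralogs of a set, such as SMARCC1 and SMARCC2, replace each other in a complex was not examined here.

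The name of the transfected mimic states an arm of the hairpin, but which bases of the hairpin it holds was not examined here. The mimic is named after the product of MIR6133. The molecule that separates the groups is the mimic, not the hairpin. The hairpin of MIR6133 is shown for reference only. It is RefSeq's entry on GRCh38.p14, chr7:133290881-133290988 on the plus strand, 108 bases long, written 5′ to 3′ with no stretch marked.
MIR6133 hairpin: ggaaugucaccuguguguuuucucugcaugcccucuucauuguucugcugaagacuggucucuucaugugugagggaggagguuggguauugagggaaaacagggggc

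The libraries held 51862006 and 57903388 counts for miControl and 61747010 and 93811213 counts for miR-6133-5p. Levels are given as CPM, counts scaled to the library total after adjustment by edgeR's TMM factors, and a count of 3 was worth at most 0.061 CPM, a floor that covers counting error only. The test was the 2-sided quasi-likelihood test of edgeR, adjusted by Benjamini–Hochberg over 18252 genes, and every adjusted p below comes from that fit. A gene is said to have risen or fallen where its adjusted p was under 0.01, and it was called lower or higher where its log2 fold change was also beyond 0.8. In bulk RNA, fewer cells of a type and less RNA per cell cannot be told apart. Of the stellate cell markers, 7 of 10 were above 1 CPM in every library, and their summed level was 5079 to 5598 CPM in miControl and 3025 to 3363 CPM in miR-6133-5p. COL1A1 made up most of this difference (3112 and 2723 CPM in miControl, 995 and 1133 in miR-6133-5p). COL1A2, COL3A1, ACTA2 and TAGLN were also lower in both miR-6133-5p libraries. ACTA2 was at 41.6 and 34.81 CPM in miControl and at 10.03 and 9.785 CPM in miR-6133-5p. TAGLN was at 352.8 and 316.1 CPM in miControl and at 166.8 and 151 CPM in miR-6133-5p. VIM and PDGFRB overlapped between the groups. DES and LRAT stayed at a few counts or none. Hepatocyte markers summed to 0.0612 to 0.141 CPM over all libraries, with TTR and HNF4A at 0. The cholangiocyte list summed to 83.9 to 85.3 CPM in miControl and 36.8 to 39.9 CPM in miR-6133-5p, nearly all of it SOX9 (80.2 and 80.8, then 33.1 and 29.5 CPM), while KRT7 and KRT19 were higher in both miR-6133-5p libraries. The endothelial list summed to 0.624 to 0.732 and 1.10 to 1.35 CPM, and the macrophage list to 1.16 to 1.79 and 2.05 to 2.28 CPM. The part of these marker lists in the subunit results was not tested.

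The remodeler genes did not move as a block. Of 32 members tested, 4 were called lower (SMARCC2, PHF10, SMARCD1 and SMARCC1) and 1 was called higher (SMARCB1), beside 5.54% and 2.9% of all tested genes. At the adjusted p alone, 9 fell and 3 rose, where 10.9% of all tested genes fell and 7.96% rose. The counts by role and by list below are read beside these same shares. The median log2 fold change of the members was 0.02, with 15 below 0 and 17 above 0, and that of all tested genes was 0.03, with 8702 below 0 and 9550 above 0. Member values ran from -1.84 to 1.48. The groups did not overlap for 27 members, 12 of them lower and 15 higher in miR-6133-5p, but this held for 64.4% of all tested genes. Near the fold threshold, SMARCC1 lay just inside at -0.83 and DPF3 just outside at -0.79. With library totals alone as the scale, the median of all genes was 0.19 and only SMARCC2 and PHF10 were called lower among the members.

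**Figure D1:**
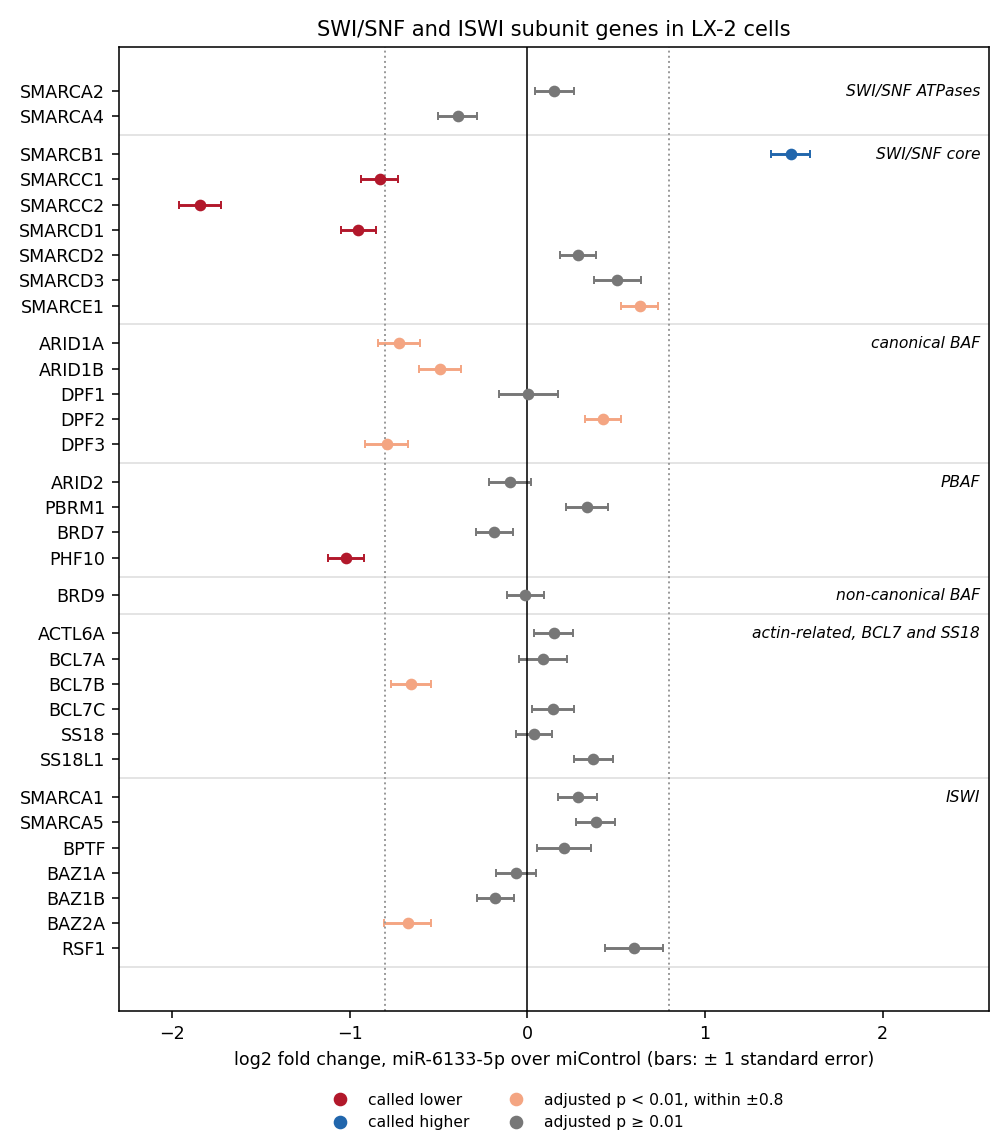
Log2 fold change of each tested subunit gene, miR-6133-5p over miControl (x axis), by role in the complexes (y axis), with bars of 1 standard error from the fit and dotted lines at the fold threshold of 0.8. SMARCC2 lies farthest to the left at -1.84 and SMARCB1 farthest to the right at 1.48, and the ISWI genes lie between -0.67 and 0.60.

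SMARCC2 and SMARCC1 encode the paralogous scaffold proteins on which the SWI/SNF core assembles, and both fell. SMARCC2 (ENSG00000139613, GRCh37 chr12:56556143-56583351, minus strand) was at 132 and 128 CPM in the miControl libraries and at 32.6 and 40.1 CPM in the miR-6133-5p libraries. Both miR-6133-5p libraries were far below both controls. The mean went from 130 ± 2.75 to 36.4 ± 5.25 CPM (SD, n = 2), a fit of -1.84 ± 0.118 (SE) on the log2 scale, or 0.279 times the control level, with an adjusted p of 2.27e-07 in edgeR's test. SMARCC2 was among the predicted targets for which the study obtained siRNAs, and these were picked for their fall in these same libraries, so its fall here is not independent evidence. On the opposite strand, MYL6 covers 7.83% of the exon bases of SMARCC2; MYL6 was at 429 to 507 CPM and had a log2 fold change of 0.01 (edgeR adjusted p = 0.944).

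SMARCC1 (ENSG00000173473, chr3:47626759-47823596, minus strand) was at 240 and 244 CPM in miControl and at 131 and 141 CPM in miR-6133-5p. The groups were again well apart. Its log2 fold change was -0.83 ± 0.103 (SE, edgeR adjusted p = 4.78e-05), or 0.562 times control, so a smaller fall than that of SMARCC2. Without miR-6133-5p replicate 1 the value was -0.78, and with library totals alone it was -0.67, in both cases inside the fold threshold.

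The log2 ratio of SMARCC2 to SMARCC1 counts, in which library size cancels, was -0.86 and -0.93 in miControl and -2.01 and -1.81 in miR-6133-5p. The ratio was thus lower in both miR-6133-5p libraries, by -1.02 on the log2 scale, with an interval of -1.33 to -0.70 at 2 combined standard errors of the edgeR fit. With 2 libraries against 2, the exact 2-sided permutation test cannot go below p = 0.33, which is the value obtained (0.367 adjusted over 11 paralog pairs). Per kilobase of the canonical transcript, SMARCC2 made up 40.7% and 39.6% of the SMARCC mRNA in miControl and 23.7% and 26.2% in miR-6133-5p. SMARCC1 was the more abundant paralog per kilobase in every library, at 37.8 and 38.5 CPM per kilobase in miControl against 26.0 and 25.2 for SMARCC2. In miR-6133-5p the SMARCC1 level was 20.7 and 22.1 CPM per kilobase and that of SMARCC2 was 6.41 and 7.87.

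Among the other core subunits, SMARCB1 and SMARCD1 went in opposite directions. SMARCB1, a subunit that contacts the nucleosome surface and is lost in rhabdoid tumours (ENSG00000099956, chr22:24129118-24180196, plus strand), was at 43.0 and 37.7 CPM in miControl and at 117 and 109 CPM in miR-6133-5p. Both miR-6133-5p libraries were above both controls by a wide margin. The mean rose from 40.4 ± 3.74 to 113 ± 5.27 CPM (SD, n = 2), which is 2.79-fold, with a log2 fold change of 1.48 ± 0.109 (SE, edgeR adjusted p = 6.14e-07). The call held under every alternative run, with log2 values of 1.37 to 1.57 when 1 library was left out. DERL3, on the opposite strand, shares 17.7% of the SMARCB1 exon bases and was at 1.36 to 1.85 CPM. Counts on the shared bases were not examined separately.

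SMARCD1 (ENSG00000066117, chr12:50478983-50494490, plus strand) belongs to the SMARCD family, which links the core to transcription factors. It was at 93.0 and 91.4 CPM in miControl and at 48.2 and 47.1 CPM in miR-6133-5p, with replicates nearly equal in each group. Its log2 fold change was -0.95 ± 0.0994 (SE, edgeR adjusted p = 1.18e-05), or 0.517 times control. With library totals alone this was -0.79, inside the fold threshold. Its paralogs did not pass the test: SMARCD2 had 0.29 (edgeR adjusted p = 0.0534) and SMARCD3 had 0.51 (edgeR adjusted p = 0.0115). The groups did not overlap for either of them, which held for 64.4% of all tested genes. Opposite-strand genes, among them CHPF2, share 28.4% of the SMARCD3 exon bases, and counts on these bases were not examined separately.

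SMARCE1, a core subunit with an HMG box that binds DNA, was at 53.0 and 58.3 CPM in miControl and at 90.3 and 82.3 CPM in miR-6133-5p. Both miR-6133-5p libraries were higher, and the rise of 0.63 ± 0.106 (log2, SE) had an edgeR adjusted p of 0.000554, within the fold threshold. It did not pass without miControl replicate 1 (adjusted p = 0.0278 in edgeR) or without miControl replicate 2 (0.0103). A same-strand Ensembl gene, ENSG00000264058, shares 18.9% of the SMARCE1 exon bases and was at 1.47 to 2.09 CPM. Over the core as a whole, 3 of 7 members fell and 2 rose, beside 10.9% and 7.96% of all tested genes. The median log2 fold change of the core was 0.29.

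**Figure D2:**
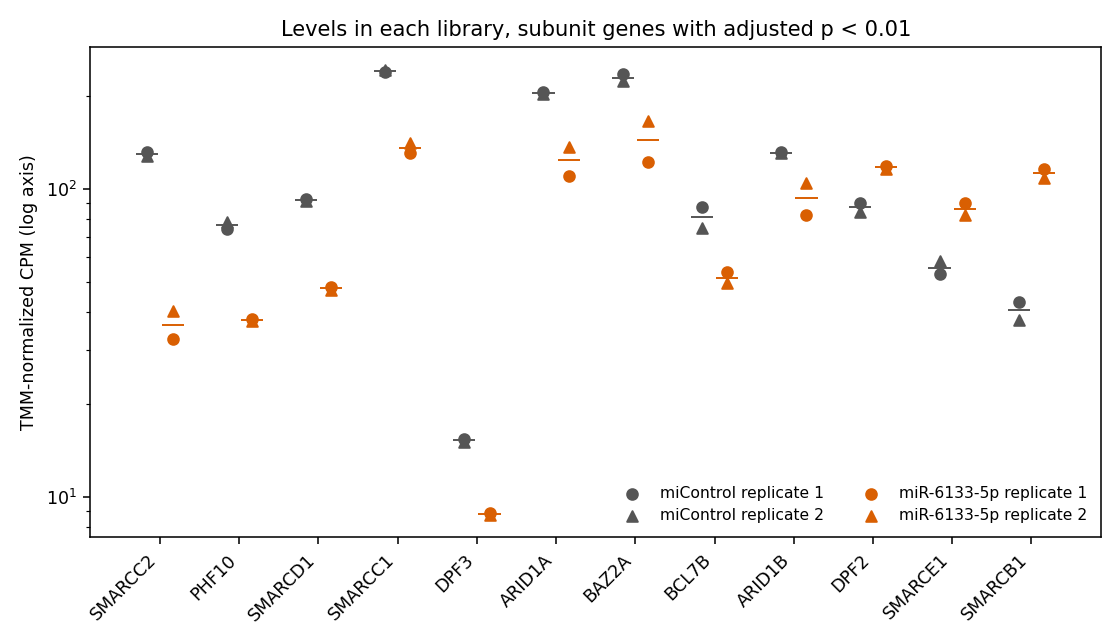
TMM-normalized CPM (log axis) of the 12 subunit genes with an adjusted p under 0.01, with 1 point per library and a line at each group mean (n = 2). The groups are apart for every gene shown, but the genes were chosen by that adjusted p in these same libraries, so this is not further evidence. The miR-6133-5p replicates of SMARCC2, SMARCC1, ARID1A, BAZ2A and ARID1B lie farther from each other than their controls do, in CPM and on the log axis.

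The ATPases of SWI/SNF did not pass the test. SMARCA4, the ATPase with the higher mRNA level here, was at 231 and 217 CPM in miControl and at 157 and 184 CPM in miR-6133-5p. The miR-6133-5p libraries were both lower, with a log2 fold change of -0.39 ± 0.111 (SE) and an edgeR adjusted p of 0.0168. It passed 0.01 in 4 alternatives, among them DESeq2 (adjusted p = 0.00365) and edgeR without miR-6133-5p replicate 2 (0.000411). SMARCA2, its alternative, had a log2 fold change of 0.15 ± 0.11 (SE, edgeR adjusted p = 0.33). Per kilobase, SMARCA4 was at 28.2 to 41.4 CPM and SMARCA2 at 6.08 to 7.44 CPM over the 4 libraries. The log2 ratio of SMARCA4 to SMARCA2 counts was 2.73 and 2.54 in miControl and 2.07 and 2.11 in miR-6133-5p, a difference of -0.55 with an interval of -0.86 to -0.23 at 2 standard errors. SMARCA2 accordingly made up 13.5% ± 1.07 of the ATPase mRNA per kilobase in miControl and 18.6% ± 0.302 in miR-6133-5p (SD, n = 2).

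Of the 5 subunits that define canonical BAF, 3 fell and 1 rose, each by less than the fold threshold. Over all tested genes 10.9% fell and 7.96% rose. The median log2 fold change of the 5 subunits was -0.49. ARID1A, a DNA-binding subunit and frequent tumour suppressor, was at 207 and 203 CPM in miControl and at 111 and 137 CPM in miR-6133-5p. Its log2 fold change was -0.72 ± 0.118 (SE, edgeR adjusted p = 0.000446). The value was -0.89 without miR-6133-5p replicate 2, which brought a call, and the adjusted p was 0.0137 without miControl replicate 1. ARID1B, its paralog, was at 132 and 131 CPM in miControl and at 82.5 and 104 CPM in miR-6133-5p. The controls were nearly equal and the miR-6133-5p libraries lower but apart from each other. The log2 fold change of ARID1B was -0.49 ± 0.12 (SE, edgeR adjusted p = 0.0073), and the test no longer passed without either miControl library (adjusted p = 0.0717 and 0.0585), without miR-6133-5p replicate 1 (0.0153) or with library totals alone (0.0456). The log2 ratio of ARID1B to ARID1A was -0.65 and -0.63 in miControl and -0.42 and -0.40 in miR-6133-5p. The ratio was higher in both miR-6133-5p libraries, by 0.23 with little spread between replicates. The interval from the combined standard errors of the genes, which leaves out that they move together within a library, was -0.11 to 0.57. The intervals of the other paralog ratios given here leave this out too.

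The DPF proteins read acetylated and other modified histone tails through paired PHD fingers. DPF3 was at 15.5 and 15.1 CPM in miControl and at 8.90 and 8.74 CPM in miR-6133-5p. The replicates were close in each group. The log2 fold change of DPF3 was -0.79 ± 0.121 (SE, edgeR adjusted p = 0.000287). DPF3 was called lower with RLE size factors and with DESeq2. DPF2, the widely expressed member, was at 90.3 and 84.6 CPM in miControl and at 119 and 116 CPM in miR-6133-5p. It rose by 0.43 ± 0.102 (log2, SE, edgeR adjusted p = 0.00623), which did not pass without miControl replicate 1 (adjusted p = 0.0568) or replicate 2 (0.137). Of the exon bases of DPF2, 13.5% are shared with a gene not analysed here. DPF1, mostly a neuronal subunit, was at 4.15 to 4.35 CPM in all libraries, and its groups overlapped (log2 fold change 0.01, edgeR adjusted p = 0.986).

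In PBAF, 1 of 4 subunits fell and none rose at an adjusted p of 0.01. PHF10 (ENSG00000130024, chr6:170103998-170125662, minus strand), which takes in PBAF the place that DPF proteins take in BAF, was at 74.3 and 78.5 CPM in miControl and at 38.0 and 37.3 CPM in miR-6133-5p. Both miR-6133-5p libraries were at about the same level, well below the controls. PHF10 fell by 1.02 on the log2 scale, to 0.493 times control, with an SE of 0.101 and an edgeR adjusted p of 7.61e-06. It stayed called under every alternative but the test against the fold threshold itself (glmTreat). C6orf120, on the opposite strand, shares 10.5% of the PHF10 exon bases and was itself lower, at 64.8 and 67.4 CPM in miControl and 41.8 and 37.1 CPM in miR-6133-5p (log2 fold change -0.75, edgeR adjusted p = 0.000158). How counts on the shared bases were split between these genes is not given in the sources used here.

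The other PBAF genes did not pass the test. PBRM1, the polybromo subunit with a row of bromodomains, had a log2 fold change of 0.34 (edgeR adjusted p = 0.0455), ARID2, the DNA-binding subunit, -0.10 (0.577) and BRD7, a bromodomain subunit, -0.19 (0.201). For ARID2 the groups overlapped, at 93.8 and 103 CPM in miControl and 82.4 and 101 CPM in miR-6133-5p. PBRM1 was higher in both miR-6133-5p libraries, with 171 and 206 CPM against 142 and 157 CPM. Opposite-strand genes, among them ADCY7, share 41.9% of the BRD7 exon bases, and counts on these bases were not examined separately. BRD9, the bromodomain subunit of the non-canonical complex, was at 161 and 160 CPM in miControl and at 152 and 166 CPM in miR-6133-5p. Its groups overlapped and its log2 fold change was -0.01 ± 0.103 (SE, edgeR adjusted p = 0.952), which at 2 standard errors leaves room for a change of about the size of that of BRD7.

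Of the 7 accessory genes for actin-related, BCL7 and SS18 subunits, 6 were tested, and 1 fell and none rose. BCL7B, a small subunit of little known function, was at 87.8 and 74.9 CPM in miControl and at 53.6 and 49.6 CPM in miR-6133-5p. The miR-6133-5p libraries were both lower, although the controls were unequal. Its log2 fold change was -0.66 ± 0.111 (SE, edgeR adjusted p = 0.000603), with an adjusted p of 0.0236 without miControl replicate 1. BCL7A and BCL7C had 0.09 (edgeR adjusted p = 0.689) and 0.14 (0.412). SS18, the subunit fused in synovial sarcoma, was at 270 to 281 CPM in all 4 libraries, with a log2 fold change of 0.04 ± 0.0999 (SE, edgeR adjusted p = 0.827), and its paralog SS18L1 had 0.37 (0.0203). ACTL6A, the actin-related subunit of dividing cells, had 0.15 (edgeR adjusted p = 0.349). Its neuronal counterpart ACTL6B had 0 counts in 3 libraries and 5 counts in miR-6133-5p replicate 2, and it was not tested.

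Among the ISWI genes, 1 of 7 fell, none rose at an adjusted p of 0.01, and the median log2 fold change was 0.21. BAZ2A, the partner of SMARCA5 in the complex that silences ribosomal DNA, was at 236 and 224 CPM in miControl and at 122 and 166 CPM in miR-6133-5p. The miR-6133-5p libraries were both lower but differed more from each other than the controls did. The log2 fold change of BAZ2A was -0.67 ± 0.133 (SE, edgeR adjusted p = 0.00188). It was -0.91 without miR-6133-5p replicate 2, where BAZ2A was called lower, and -0.47 without miR-6133-5p replicate 1, and the adjusted p was 0.0383 and 0.02 without miControl replicate 1 and 2. RBMS2, on the opposite strand over 5.47% of the BAZ2A exon bases, was at 59.3 and 58.4 CPM in miControl and at 24.7 and 27.6 CPM in miR-6133-5p.

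RSF1, the histone-binding partner of SMARCA5 in the RSF complex, was at 84.9 and 128 CPM in miControl and at 145 and 177 CPM in miR-6133-5p. The groups did not overlap, but the replicates were far apart in each of them. Its log2 fold change of 0.60 ± 0.163 (SE) had an edgeR adjusted p of 0.0139, which 1 library could move either way. Without miControl replicate 2 it was 0.90 and called higher (edgeR adjusted p = 0.0046), and without miControl replicate 1 it was 0.33 (0.237). RSF1 also passed 0.01 with library totals alone (0.00231), with no filter on low counts (9.95e-07) and without miR-6133-5p replicate 1 (0.00225), but not in DESeq2 (0.143). The ATPases SMARCA5 and SMARCA1 had 0.38 (edgeR adjusted p = 0.0177) and 0.28 (0.0682). SMARCA5 was at 144 and 169 CPM in miControl and at 205 and 204 CPM in miR-6133-5p, so that its miR-6133-5p libraries were nearly equal and above both controls. SMARCA5 passed 0.01 with library totals alone (adjusted p = 0.0016), with DESeq2 (0.00628), with no filter (0.00305) and without miR-6133-5p replicate 2 (0.00728), and its value ran from 0.27 without miControl replicate 1 to 0.48 without miControl replicate 2. BPTF, the large reader subunit of the NURF complex, overlapped between the groups, at 162 and 203 CPM in miControl and 176 and 245 CPM in miR-6133-5p (log2 fold change 0.21, edgeR adjusted p = 0.34). Without miR-6133-5p replicate 1, BPTF reached an adjusted p of 0.00884 at 0.43, and without replicate 2 of that group the value was -0.0524. BAZ1A, a partner in nucleosome spacing, had -0.06 (edgeR adjusted p = 0.732) and BAZ1B, a partner with roles in replication and DNA damage, had -0.18 (0.216).

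Replicate differences were also read against transcript length. Of 9 members with a canonical transcript of at least 7500 bases, a limit chosen after the data were seen, 5 were higher in replicate 2 of miControl and 7 in replicate 2 of miR-6133-5p. Of the 23 shorter members, 12 and 10 were. Over all genes with a length, Spearman's rho between transcript length and the log2 ratio of replicate 2 to replicate 1 was 0.13 in miControl (17232 genes) and 0.27 in miR-6133-5p (17263 genes), which describes these libraries across genes that share them. With 1 library left out, calls or directions moved for ARID1A, ARID2, BAZ2A, BPTF, DPF3 and RSF1 among the 9 long members. Among the 23 shorter ones they moved for SMARCC1, BRD9, BAZ1A and DPF1, so for a smaller part by this measure. DPF3 and SMARCC1 lay close to the fold threshold. Moves across the adjusted p threshold alone are not counted here, and further members of both sets made them. The part of transcript length in these results was not tested.

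By level per kilobase of canonical transcript, SS18 was the most abundant member in every library, at 79.4 to 82.7 CPM per kilobase. BAZ1B followed at 59.5 to 71.8 and BRD9 at 57.2 to 62.3 CPM per kilobase, and the ranges of these neighbours overlap. At the low end among tested members stood DPF3 at 0.765 to 1.36, DPF1 at 1.80 to 1.89 and BCL7A at 1.96 to 2.20 CPM per kilobase. SMARCB1 moved from 8.29 and 7.27 CPM per kilobase in miControl to 22.4 and 21.0 in miR-6133-5p, from below SMARCE1 (10.3 and 11.3) to above it (17.5 and 15.98). SMARCC2 moved the other way, from 26.0 and 25.2 to 6.41 and 7.87 CPM per kilobase, from well above SMARCA2 in the same libraries to about its level (6.53 and 7.44).

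Within paralog sets, 10 of 11 log2 count ratios did not overlap between the groups, beside 64.4% of single genes, and no share over other gene pairs was computed. Each of the 10 had the smallest exact permutation p that 4 libraries allow, 0.33. The log2 ratio of SMARCD1 to SMARCD2 was 0.17 and 0.30 in miControl and -1.0 and -1.0 in miR-6133-5p, a difference of -1.24 with an interval of -1.53 to -0.95 at 2 standard errors. The ratio of SMARCD3 to SMARCD1 differed by 1.46 (1.12 to 1.79). Per kilobase, SMARCD1 made up 43.99% ± 1.38 of the SMARCD mRNA in miControl and 24.6% ± 0.16 in miR-6133-5p, and SMARCD2 went from 49.7% ± 1.52 to 65.7% ± 0.454 (SD, n = 2). With the merged exons of each gene as its length, SMARCD1 had the larger share in miControl, 55.9% against 39.4% for SMARCD2, and the smaller one in miR-6133-5p, 34.6% against 57.5%. Which of these genes led in miControl therefore depended on the length used, whereas the shift did not.

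In the set of DPF and PHF10 genes the leading member differed between the groups. PHF10 made up 56.9% ± 2.03 of that mRNA per kilobase in miControl and 33.6% ± 0.0887 in miR-6133-5p, and DPF2 went from 38.0% ± 1.88 to 61.3% ± 0.26 (SD, n = 2). The log2 ratio of DPF3 to DPF2 differed by -1.22 (-1.54 to -0.90 at 2 standard errors). BCL7B went from 70.9% ± 2.47 to 58.5% ± 0.456 of the BCL7 mRNA and stayed its main gene, and the ratio of BCL7B to BCL7C differed by -0.79 (-1.12 to -0.47). Smaller differences were found for SS18L1 to SS18, 0.34 (0.04 to 0.63). For SMARCA5 to SMARCA1, 0.10 (-0.21 to 0.41), for BRD9 to BRD7, 0.18 (-0.12 to 0.47), and for BAZ1B to BAZ1A, -0.13 (-0.43 to 0.18), the intervals included 0. These sets and lengths were chosen after the data were seen, and shares of mRNA are not shares of protein in a complex.

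**Figure D3:**
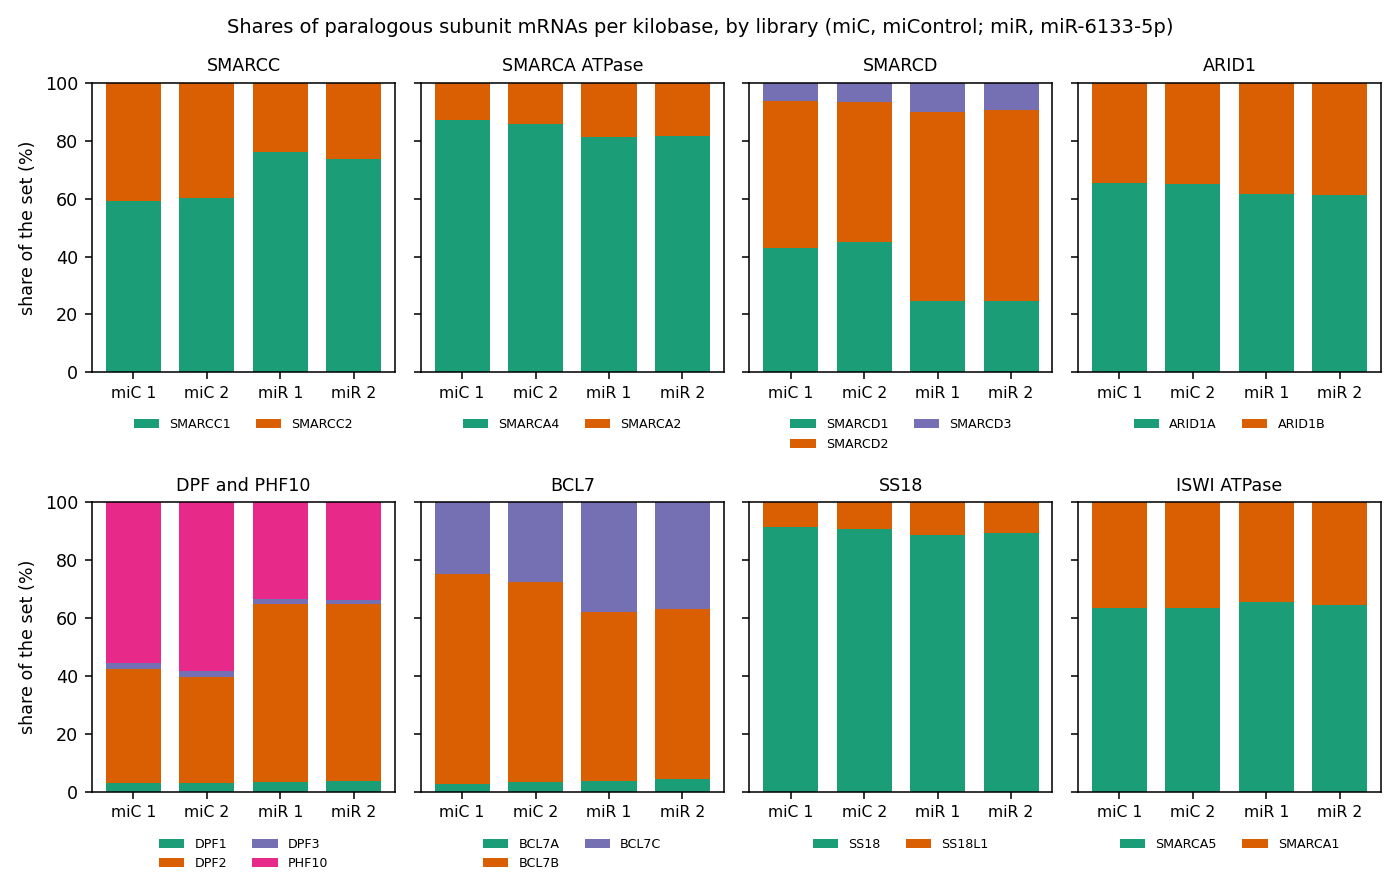
Share of each paralog (%, y axis) in the summed CPM per kilobase of its set, with 1 bar per library (miC, miControl; miR, miR-6133-5p). SMARCC2 drops from about 40% to about 25% of its pair, SMARCD1 and PHF10 have smaller shares in miR-6133-5p while SMARCD2 and DPF2 have larger ones, and the ISWI ATPases keep nearly the same proportions (SMARCA5 63.4% and 65.1% on average).

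Other subunits and other remodelers were counted for comparison. Of 12 further SWI/SNF and ISWI subunits, 9 were tested, 1 fell and 1 rose, with a median log2 fold change of -0.04. CHRAC1, a histone-fold partner of SMARCA5 and BAZ1A, was called lower, from 45.5 and 44.01 CPM in miControl to 21.8 and 19.0 CPM in miR-6133-5p (-1.14 ± 0.112, SE, edgeR adjusted p = 7.41e-06). RBBP4, a histone chaperone shared by NURF and other complexes, rose by 0.45 (edgeR adjusted p = 0.00522). In the CHD and NuRD list, 1 of 20 genes fell (GATAD2B, -0.61) and none rose, with a median of -0.06. In the INO80, SRCAP and TIP60-p400 list, 6 of 29 rose, beside 7.96% of all tested genes, and none fell, with a median of 0.21, and INO80B was called higher at 0.88.

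Polycomb repressive complex 2 deposits a repressive histone mark that SWI/SNF is known to oppose. Of its 9 genes, 4 rose and none fell, and all 9 had log2 fold changes above 0, with a median of 0.34. Over all tested genes, 7.96% rose and 9550 of 18252 were above 0, with a median of 0.03. EZH2, its catalytic subunit, was at 60.0 and 60.2 CPM in miControl and at 117 and 107 CPM in miR-6133-5p. Both miR-6133-5p libraries were well above the controls, and EZH2 was called higher at 0.89 ± 0.103 (log2, SE, edgeR adjusted p = 2.69e-05). EED, MTF2 and PHF1 rose by 0.75, 0.45 and 0.41. These counts describe the lists and were not set against other lists by a test.

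**Figure D4:**
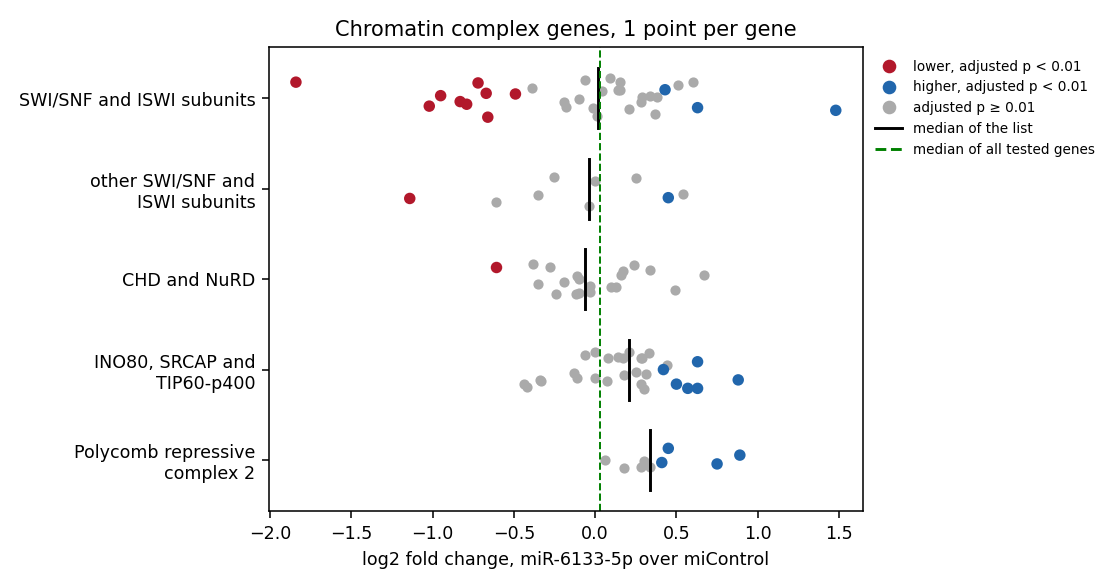
Log2 fold change of every tested gene in 5 lists of chromatin complex genes (x axis, miR-6133-5p over miControl), with 1 point per gene, a black line at each list's median and a dashed green line at the median of all tested genes (0.03). The 32 SWI/SNF and ISWI members spread from -1.84 to 1.48 around a median of 0.02, and all 9 Polycomb repressive complex 2 genes lie above 0. Vertical scatter within a list has no meaning.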

How the data were processed

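RNA of 4 LX-2 libraries was made into stranded libraries per the labels (TruSeq Stranded mRNA), and the submitters' processing notes name STAR 2.5.3a, featureCounts and Subread 1.6.4 with GRCh37. The authors deposited raw counts, whole numbers per Ensembl gene without normalization, as 1 matrix and 4 tables holding the same values. Library totals were about 1.7 times the uniquely mapped read pairs, and whether mates were counted singly, and with which strand setting, is not given in the sources used here. Symbols were attached to 55665 of 63677 genes from a reference table.

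Low counts were removed by filterByExpr and TMM factors were computed, after which glmQLFit and glmQLFTest of edgeR 4.0.16 (R 4.3.3) were run without covariates. Calls used an adjusted p of 0.01 and a log2 fold change of 0.8, as in the study's methods. The common biological coefficient of variation was 0.105. Standard errors came from the F statistic. The fit draws each gene's spread toward that of other genes, with a median prior of 10.9 degrees of freedom. The edgeR p-values and standard errors thus do not rest on a gene's own replicates alone. Per-kilobase levels used canonical transcripts of GENCODE v44 lifted to GRCh37 (the annotation behind the counts may differ). Paralog ratios were compared by exact permutation over libraries. The procedure was tested on simulated data. Alternatives were RLE and library totals, DESeq2 1.42.0, other filters, glmTreat, a looser threshold, a replicate block and leaving out each library. Every member is named. The members, lists and tests were chosen with earlier results of these data known. Seed matches of the mature miRNA and 1 endothelial marker were not analysed here, and the authors' own comparisons were not used.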

Additional observations from a re-analysis of the deposited data

How the results depend on the processing

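The number of members called lower, 4, became 2 with library totals alone (SMARCC2 and PHF10), 1 with glmTreat (SMARCC2) and 10 at an adjusted p of 0.05 with no fold threshold, and ran from 4 to 6 when 1 library was left out. The number called higher, 1, became 8 at that looser threshold and 1 to 2 with a library left out, RSF1 joining SMARCB1 without miControl replicate 2. With the replicate block, 4 were called lower and 1 higher and SMARCC2 minus SMARCC1 was -1.02, as without it, while SMARCA4, SMARCD3, SS18L1, SMARCA5 and RSF1 newly passed an adjusted p of 0.01 (0.00287, 0.00317, 0.00674, 0.00348 and 1.36e-06). Deviations of same-numbered libraries correlated at 0.049 over 18252 genes, so the numbers were not treated as pairs. SMARCC2 minus SMARCC1 stayed between -1.11 and -0.92 without single libraries. Over member fold changes and alternatives, 270 values kept their direction and side of the threshold, 26 newly passed it, 12 no longer passed it and 12, none past it, reversed. The cause was not tested. The reversals were ARID2 (0.0638 with library totals, -0.26 to 0.04 with a library left out), BRD9 (0.15, -0.0744 to 0.0489), BAZ1A (0.10, -0.20 to 0.0564), BPTF (-0.0524 to 0.43) and DPF1 (-0.00597 with RLE, -0.00621 with DESeq2, -0.000663 with at least 10 counts in every library, -0.0494 to 0.0364). With 1 library left in an arm, it is assumed to vary like the others. With merged exons, a length chosen after the data were seen, no share changed direction. Depth limits little here except for ACTL6B, and 2 libraries per group limit every p-value.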
